A study of Homo sapiens with 9 samples.

Results

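Small nuclear RNA (snRNA) genes were examined in HEK293-derived cells that expressed a circular or a linear RNA of SMN exons. The genes were those of biotype snRNA in Gencode with 45 or more raw counts summed over the 9 libraries. Of 1901 annotated snRNA genes in the count table, 657 had any count and 150 reached this minimum, among 37838 genes of all kinds with any count. They were thus chosen by their summed counts, and the minimum uses no difference between lines. Just inside it lay the U7 copy ENSG00000276376.1 with 45 counts, RNU6-1316P with 46 and RNU6-249P with 47. Just outside it lay RNU6-1275P with 44 counts, and RNU6-821P and RNU2-37P with 43 each.

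TC4-2A cells carried an inducible construct for the circular RNA, TL4-2A cells carried a construct for the linear RNA of the same exons, and T-REx control cells were the parental line with no insertion. Cells of all 3 lines, the controls included, received doxycycline (Dox) for 96 h, and 3 libraries of total RNA depleted of ribosomal RNA were sequenced per line. The sources used here do not say if separate cultures gave the libraries of a line, or if a line was 1 clone, so p-values cover the spread among the libraries only. HEK293 cells are an established human embryonic kidney line, and 7 of 9 markers listed for them exceeded 1 CPM (count per 1000000 counts of a library) in every library, with 2317 to 3813 CPM for IRS4. The other 2 were TUBB3, with 0.363 to 1.40 CPM, and PAX8, with 0 to 0.139 CPM. The 5 blood cell markers summed to 0.285 to 0.741 CPM and the 3 endothelial markers to 0.250 to 0.727 CPM per library. The 6 fibroblast markers, mostly FBN1, summed to 70.4 to 75.1 CPM in TC4-2A, 92.3 to 103 CPM in TL4-2A and 75.0 to 85.0 CPM in T-REx control cells, and the 5 epithelial markers, mostly CDH1, to 9.55 to 10.7, 7.65 to 9.44 and 20.9 to 23.2 CPM in the same lines. Their part in the snRNA differences was not tested. Total counts per library were 16561680 to 21491977.

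The spliceosome removes introns from pre-mRNA with small ribonucleoproteins that are each built on an snRNA. U1 pairs with the start of an intron, U2 with its branch point, and U4, U5 and U6 join as a preassembled complex. The minor spliceosome uses U11, U12, U4atac, U5 and U6atac for a rare class of introns, and U7 serves in the processing of histone mRNA ends. Most of these RNAs receive a ring of Sm proteins from the SMN complex, on a short uridine-rich site. U6 and U6atac, which are made by another RNA polymerase, bind LSm proteins at their end. Human snRNA genes are short, and the genome holds many copies of them that are pseudogenes.

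The 150 genes were 14 functional genes, 19 variant U1 genes (RNVU1), 107 pseudogenes by their symbol and 10 copies with no gene number. By family they were 80 U6, 30 U1, 10 U2, 8 U7, 7 U4, 7 U5, 4 U4atac, 2 U6atac and 1 U11 gene, and the family of 1 gene, ENSG00000275908, is not given by its symbol. In Gencode, 115 of them lay in an intron of another gene on the same strand, 5 in an intron on the opposite strand, 1 in an exon on the same strand, 1 in an exon on the opposite strand and 28 in no other gene. RNVU1-21 was the gene in a same-strand exon, that of LINC01138, and RNU1-3 was the gene in an opposite-strand exon. To see how far a read could be placed at a single gene, each gene was read in windows of 50 bases, and the share of windows that occur at 1 place in the GRCh38 genome was counted. In 19 genes fewer than 50% of the windows were unique, and these are called genes of shared sequence here. Of the others, 107 lay in a same-strand intron and 24 did not.

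The sequences of 8 snRNAs with many counts are shown because the copies of a family differ by few bases, which bears on where reads were counted. They are the Gencode transcripts on GRCh38, written as DNA from 5′ to 3′, and capitals mark the last match to ATTTTTG, ATTTTTTG or ATTTGTG, which are forms of the Sm site.
RNU1-1: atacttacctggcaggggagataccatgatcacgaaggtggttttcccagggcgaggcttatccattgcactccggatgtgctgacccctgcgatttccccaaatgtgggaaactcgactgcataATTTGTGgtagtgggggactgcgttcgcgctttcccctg
RNVU1-31: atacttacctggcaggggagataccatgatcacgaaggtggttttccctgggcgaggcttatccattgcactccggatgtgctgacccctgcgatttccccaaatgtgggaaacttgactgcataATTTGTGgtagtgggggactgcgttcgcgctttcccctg
RNVU1-28: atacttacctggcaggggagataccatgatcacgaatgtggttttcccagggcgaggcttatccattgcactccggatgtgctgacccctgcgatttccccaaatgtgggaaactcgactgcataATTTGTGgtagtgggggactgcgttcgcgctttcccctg
RNU4-1: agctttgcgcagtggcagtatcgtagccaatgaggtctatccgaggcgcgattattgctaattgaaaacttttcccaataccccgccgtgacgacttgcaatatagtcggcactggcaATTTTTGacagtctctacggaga
RNU4-2: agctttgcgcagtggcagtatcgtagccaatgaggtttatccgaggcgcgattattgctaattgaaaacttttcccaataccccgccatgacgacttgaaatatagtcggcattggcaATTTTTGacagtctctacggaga
RNU4ATAC: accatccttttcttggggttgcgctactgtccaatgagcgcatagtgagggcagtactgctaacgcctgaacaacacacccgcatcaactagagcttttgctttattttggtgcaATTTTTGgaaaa
RNU6ATAC: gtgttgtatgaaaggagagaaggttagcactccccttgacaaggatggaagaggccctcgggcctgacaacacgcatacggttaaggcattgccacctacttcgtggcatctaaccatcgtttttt
U2 gene ENSG00000278774.1: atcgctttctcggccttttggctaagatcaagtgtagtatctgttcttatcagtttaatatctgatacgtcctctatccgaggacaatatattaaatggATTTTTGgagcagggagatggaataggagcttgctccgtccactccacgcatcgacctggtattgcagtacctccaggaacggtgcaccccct
These letters were found in 59 of the 150 genes (39.3%), on the transcribed strand only, and in 493 of all 1901 annotated snRNA genes (25.9%). They were found in 11 of the 14 functional genes and in neither U6atac gene. RNU1-1 and RNVU1-31 differed at 2 of 164 bases, A49T and C116T, counted from the 5′ end with the RNU1-1 base first. RNU1-1 and RNVU1-28 differed at G37T only. RNU4-1 and RNU4-2 differed at 4 of 141 bases. Unique windows made up 98.9% of RNU4-2, 87.0% of RNU4-1, 86.6% of RNU5A-1 and of RNU5B-1, 85.2% of RNVU1-31, 55.8% of RNU6ATAC, 32.2% of RNVU1-28 and 0% of RNU1-1, and all windows of RNU4ATAC were unique.

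Levels were compared between genes per length, as median CPM per kilobase in T-REx control cells. RNU4-2, which forms U4, had the highest value at 791 CPM per kilobase. The U2 gene ENSG00000278774.1 followed with 593, RNVU1-31 with 565, RNU4-1 with 346, RNU5B-1 with 309 and RNU5A-1 with 243 CPM per kilobase. RNU4ATAC and RNU6ATAC of the minor spliceosome stood at 125 and 29.8 CPM per kilobase. The U6 genes RNU6-2 and RNU6-7 had 7.80 and 2.44 CPM per kilobase, and all windows of both occurred at several places. Other functional genes fell below the minimum. RNU2-1 had 42 counts over the 9 libraries, RNU6-8 had 35, RNU6-1 had 27, RNU11 had 14 and RNU6-9 had 4. RNU5E-1, RNU2-2P, RNU7-1 and RNU12 had 0 counts in every library, and each of the 4 lies in an exon of another annotated gene on the same strand. How reads that match several genes were counted is not given in the sources used here. A count of 0 is thus not a measure of the absence of these RNAs. For the same reason the order of genes above is one of counts and does not rank the RNAs themselves.

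The 150 genes together had 1194, 1104 and 578 CPM in the 3 libraries of the TC4-2A line, 483, 525 and 485 CPM in TL4-2A cells, and 621, 707 and 730 CPM in T-REx control cells. CPM were scaled by TMM, the trimmed mean of M values. In bulk RNA, fewer cells with an RNA and less of it per cell cannot be told apart. TL4-2A libraries lay below all others, and TC4-2A libraries lay both above and below those of T-REx control cells. The 24 genes of own sequence outside same-strand introns had 417, 261 and 200.4 CPM in TC4-2A libraries, 203, 220.1 and 209 CPM in TL4-2A cells, and 339, 351 and 407 CPM in T-REx control cells. The 107 genes of own sequence in same-strand introns had 80.5, 76.3 and 77.6 CPM in TC4-2A libraries, 84.1, 85.5 and 89.8 CPM in TL4-2A cells, and 81.0, 78.3 and 84.0 CPM in T-REx control cells. The 19 genes of shared sequence had 696, 767 and 300.2 CPM in TC4-2A libraries, 195, 219.8 and 186 CPM in TL4-2A cells, and 201, 278 and 239 CPM in T-REx control cells. The high sums of TC4-2A libraries 1 and 2 thus came from genes of shared sequence, and the order of TL4-2A and T-REx control cells was carried by genes outside introns.

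**Figure D1:**
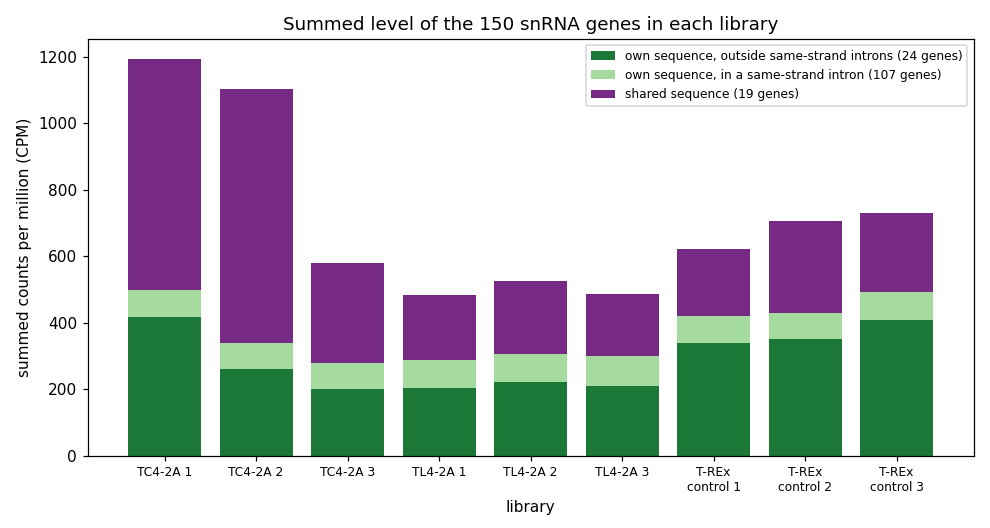
Summed level of the 150 snRNA genes in each library (y axis, summed CPM on TMM library sizes), split by whether a gene shares its sequence with other places in the genome and whether it lies in a same-strand intron. TC4-2A libraries 1 and 2 stand above the rest through genes of shared sequence (696 and 767 CPM), and the summed level of own-sequence genes outside same-strand introns is lowest in TC4-2A library 3 and the TL4-2A libraries (200.4 to 220.1 CPM).

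Differences between lines were tested with the edgeR quasi-likelihood test over all 19473 genes that passed the expression filter in a 2-sided test, and calls needed a Benjamini-Hochberg adjusted p under 0.05. Of the 150 snRNA genes, 91 passed this filter and 59 did not, and those were not tested. The genes not tested had at most 137 counts over the 9 libraries. All log2 differences below are those of this fit, with their standard error (SE).

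The comparison of TL4-2A with T-REx control cells set the line with the linear RNA against the line with no construct. The clearest differences were in U5, which aligns the exons for joining. RNU5B-1 (chromosome 15, 65304677 to 65304792) had 10.3, 11 and 10.5 CPM in TL4-2A cells, against 33.5, 35.8 and 43.4 CPM in T-REx control cells. Every TL4-2A library lay below every control library, and the log2 difference was -1.83 ± 0.15 (SE, edgeR adjusted p = 2.1e-12, n = 3 each). RNU5A-1 (chromosome 15, 65296051 to 65296166), in an intron of PARP16 on the opposite strand, had 10.4, 10.4 and 8.96 CPM in TL4-2A cells, against 23.4, 28.1 and 33 CPM in T-REx control cells. Its log2 difference was -1.51 ± 0.19 (SE, edgeR adjusted p = 2.4e-08), again without overlap. Among the other U5 genes, RNU5E-4P fell by 1.57, RNU5A-8P by 1.06 and RNU5D-1 by 1.02 on the log2 scale (edgeR adjusted p = 0.00023, 0.00013 and 0.012), while RNU5F-1 did not pass the test (log2 difference -0.59 ± 0.36, edgeR adjusted p = 0.19).

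RNU4-1 and RNU4-2, which form U4, and RNU4ATAC and RNU6ATAC of the minor spliceosome fell too. RNU4-2 (chromosome 12, 120291763 to 120291903) had 65.5, 71.7 and 69.1 CPM in TL4-2A cells, against 106, 112 and 129.9 CPM in T-REx control cells, and its log2 difference was -0.75 ± 0.12 (SE, edgeR adjusted p = 3.6e-06). RNU4-1, on the same chromosome at 120293097 to 120293237, had 30.6, 31.8 and 33.2 CPM in TL4-2A cells, against 48.8, 47.6 and 57.1 CPM in T-REx control cells (log2 difference -0.68 ± 0.12, edgeR adjusted p = 2.1e-05). The groups did not overlap for either U4 gene. RNU4ATAC (chromosome 2, 121530881 to 121531007), the U4 counterpart of the minor spliceosome, lay in an intron of CLASP1-AS1 on the same strand. It had 7.51, 7.65 and 7.13 CPM in TL4-2A cells, against 13.6, 16.2 and 15.9 CPM in T-REx control cells, a log2 difference of -1.04 ± 0.17 (SE, edgeR adjusted p = 5.6e-06). RNU6ATAC (chromosome 9, 134164439 to 134164564), which takes the place of U6 on rare introns, had 2.06, 1.60 and 2.26 CPM in TL4-2A cells, against 4.61, 3.24 and 3.76 CPM in T-REx control cells. Its log2 difference was -0.97 ± 0.23 (SE, edgeR adjusted p = 0.00081), and its groups did not overlap either.

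Variant U1 genes differed among themselves. RNVU1-31 (chromosome 1, 145465617 to 145465780) had 54.0, 59.7 and 51.8 CPM in TL4-2A cells, against 90.8, 92.6 and 103 CPM in T-REx control cells (log2 difference -0.79 ± 0.13, edgeR adjusted p = 3.2e-06). RNVU1-28 (chromosome 1, 144560666 to 144560829) had 11.2, 13.9 and 11.5 CPM in TL4-2A cells, against 23.6, 20.6 and 25.8 CPM in T-REx control cells (log2 difference -0.93 ± 0.11, edgeR adjusted p = 1.0e-08). RNVU1-1, in an intron of LINC01138, fell by 1.80 on the log2 scale from a lower level, with 0.424 to 0.802 CPM in TL4-2A cells against 1.90 to 2.86 CPM in T-REx control cells (edgeR adjusted p = 9.1e-06). RNVU1-2A also fell, by 0.59 (edgeR adjusted p = 0.046). RNVU1-27 (chromosome 1, 148522601 to 148522765) went the other way, with 12.8, 15.5 and 15.4 CPM in TL4-2A cells against 11.1, 11 and 13.4 CPM in T-REx control cells, and its groups overlapped (log2 difference 0.30 ± 0.09, edgeR adjusted p = 0.0073). RNVU1-34 in TEX14 and RNVU1-15 had log2 differences of -0.03 ± 0.13 and 0.03 ± 0.14 (edgeR adjusted p = 0.86 and 0.88).

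The counts at U2 genes did not follow. The U2 gene ENSG00000278774.1, which has the most counts of all 150 genes, had 98.2, 136 and 108 CPM in TL4-2A cells, against 82.3, 114 and 131 CPM in T-REx control cells. The groups overlapped and the log2 difference was 0.07 ± 0.09 (SE, edgeR adjusted p = 0.58). It lies in an array of U2 genes on chromosome 17, in an intron of CCDC200, and 3.50% of its windows were unique. The 11 genes that share the RNU2-1 sequence in this array were also summed. They had 26, 32.9 and 32.8 CPM in TL4-2A cells and 22.6, 24.8 and 32 CPM in T-REx control cells. This sum leaves out ENSG00000278774.1, and windows of the shared sequence occur at up to 16 places in the genome. Placement of reads outside the 11 genes can therefore still bear on it.

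In all, 16 of the 91 genes tested were called lower and 8 higher in TL4-2A cells than in T-REx control cells, beside 22.5% of all genes tested that were called lower and 21.9% that were called higher. These shares of snRNA genes, 17.6% lower and 8.79% higher, lay below those of all genes. The 150 snRNA genes had a median of 88 counts over the 9 libraries, and the part of low counts in these shares was not tested. The 18 genes tested of own sequence outside same-strand introns had 10 called lower and 1 higher, with a median log2 difference of -0.64. The 58 genes tested of own sequence in same-strand introns had 3 called lower and 7 higher, with a median of 0.31. The median over all genes tested was 0.00. Leaving out 1 library at a time gave 18 to 29 calls, and DESeq2 called 14 genes, of which 13 were called by edgeR. For these and later alternatives the shares of all genes called are not given here. RNU5A-1, RNU5B-1, RNU4-1, RNU4-2, RNU4ATAC, RNU6ATAC, RNVU1-31 and RNVU1-28 kept direction and call in all 16 alternatives, with adjusted p up to 0.039. With DESeq2 the adjusted p was 0.071 for RNU5D-1 and 0.17 for RNVU1-2A.

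**Figure D2:**
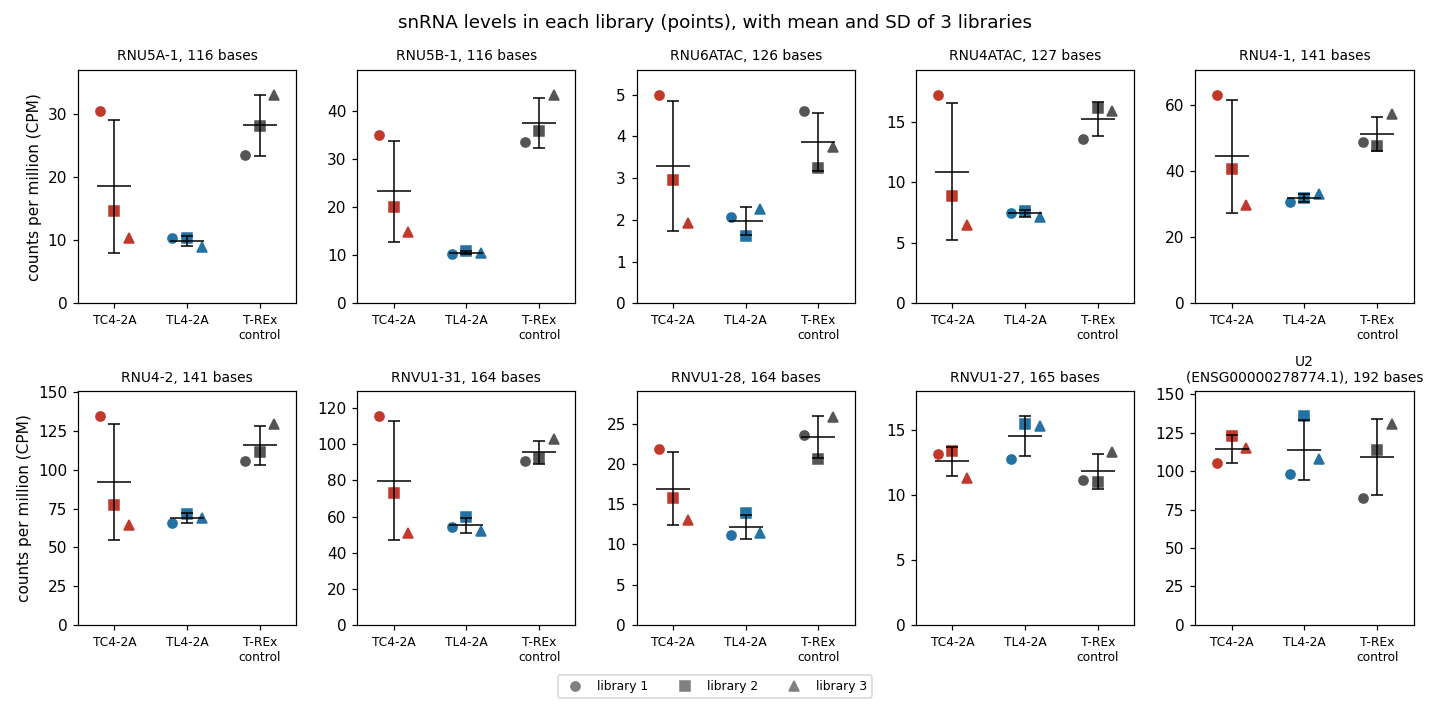
Level of 10 snRNA genes in each library (y axes, CPM on TMM library sizes, each starting at 0), with the mean and SD of 3 libraries per line, ordered by annotated length. In the first 8 panels the TL4-2A libraries lie below those of T-REx control cells and the TC4-2A libraries differ widely from each other, as for RNU4-2 with 135, 77.5 and 64.6 CPM in TC4-2A cells.

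TC4-2A cells expressed the circular RNA, and their libraries differed widely from each other in the same snRNAs. RNU4-2 had 135, 77.5 and 64.6 CPM in TC4-2A cells, so that library 1 stood above and libraries 2 and 3 below all 3 libraries of T-REx control cells (106 to 129.9 CPM). RNU5B-1 had 35.0, 20.0 and 14.9 CPM in TC4-2A cells, against 33.5 to 43.4 CPM in T-REx control cells. RNU5A-1 had 30.5, 14.7 and 10.4 CPM in TC4-2A cells, against 23.4 to 33 CPM in T-REx control cells. The highest TC4-2A library exceeded the lowest by 2.08 times for RNU4-2, 2.13 times for RNU4-1, 2.27 times for RNVU1-31, 2.35 times for RNU5B-1, 2.58 times for RNU6ATAC, 2.65 times for RNU4ATAC and 2.92 times for RNU5A-1. The same ratio was 1.07 to 1.41 in TL4-2A cells and 1.13 to 1.42 in T-REx control cells for these 7 genes. RNU4ATAC had 17.2, 8.88 and 6.50 CPM, RNU6ATAC 5, 2.94 and 1.93 CPM, and RNVU1-31 116, 73.2 and 50.9 CPM in TC4-2A cells, in the same order of libraries. The U2 gene ENSG00000278774.1 had 105, 123 and 115 CPM in TC4-2A cells and did not show that order.

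In the comparison of TC4-2A with T-REx control cells, 11 genes (12.1% of those tested) were called lower and 5 (5.49%) higher, beside 14.6% of all genes tested called lower and 14.2% called higher. Of the 18 genes of own sequence outside same-strand introns, 5 were called lower and 0 higher, with a median log2 difference of -0.27. The lower genes outside the shared sequences included RNU5B-1 (log2 difference -0.68 ± 0.13, edgeR adjusted p = 7.3e-05), RNU5A-1 (-0.60 ± 0.16, edgeR adjusted p = 0.0044), RNU4ATAC (-0.48 ± 0.16, edgeR adjusted p = 0.018) and RNU4-2 (-0.33 ± 0.12, edgeR adjusted p = 0.033). TC4-2A library 1 lay within or above the control range for each of these 4, so the groups overlapped. RNU5E-4P fell by 0.91 and RNU5A-8P by 0.57 (edgeR adjusted p = 0.017 and 0.025), and RNVU1-28 fell by 0.46 (edgeR adjusted p = 0.00063). RNVU1-1 had 1.55, 0.475 and 1.18 CPM in TC4-2A cells, against 2.86, 1.90 and 2.40 CPM in T-REx control cells, with no overlap (log2 difference -1.16 ± 0.27, edgeR adjusted p = 0.00094). RNU4-1, RNVU1-31 and RNU6ATAC did not pass the test, with log2 differences of -0.20 ± 0.12, -0.25 ± 0.12 and -0.22 ± 0.20 (edgeR adjusted p = 0.21, 0.12 and 0.47). Of 73 snRNA genes that DESeq2 gave an adjusted p, it called 3, namely RNVU1-1, RNU1-4 and RNU1-27P. With DESeq2 the adjusted p was 0.11 for RNU5B-1, 0.33 for RNU5A-1, 0.38 for RNU4ATAC and 0.49 for RNU4-2. Without TC4-2A library 1 the log2 difference was -0.70 for RNU4-2 and -1.16 for RNU5A-1, and without library 3 it was -0.13 and -0.33, neither of them called then.

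The direct comparison of TC4-2A with TL4-2A cells had 12 genes (13.2% of those tested) called higher and 3 (3.30%) lower, beside 17.6% of all genes tested called higher and 17.8% called lower. Of the 18 genes of own sequence outside same-strand introns, 7 were called higher and 1 lower, with a median log2 difference of 0.45. RNU5B-1 was higher in TC4-2A cells by 1.14 ± 0.17 on the log2 scale (SE, edgeR adjusted p = 5.3e-07), and its 3 TC4-2A libraries (14.9 to 35.0 CPM) lay above its 3 TL4-2A libraries (10.3 to 11 CPM). RNU5A-1 was higher by 0.91 ± 0.20, RNU6ATAC by 0.76 ± 0.24, RNU4ATAC by 0.55 ± 0.18, RNVU1-31 by 0.54 ± 0.13, RNU4-1 by 0.48 ± 0.13, RNVU1-28 by 0.47 ± 0.12 and RNU4-2 by 0.43 ± 0.12 (edgeR adjusted p = 0.00039 to 0.015). For RNU4-2, RNU4-1, RNVU1-31, RNVU1-28, RNU4ATAC and RNU6ATAC the third TC4-2A library lay below the highest TL4-2A library. RNVU1-22, a variant U1 gene, was higher by 0.50 ± 0.19 (edgeR adjusted p = 0.041), with 2.70, 2.61 and 2.53 CPM in TC4-2A cells, against 2.00, 1.55 and 2.01 CPM in TL4-2A cells. The 3 lower genes were the pseudogenes RNU6-125P in PKN2, RNU6-126P in ALG8 and RNU2-63P, with log2 differences of -1.06 ± 0.34, -0.82 ± 0.32 and -0.82 ± 0.28 (edgeR adjusted p = 0.013, 0.042 and 0.019). These 3 had 141, 129 and 244 counts over the 9 libraries. They kept their calls in 12 of 15, 5 of 15 and 12 of 16 alternatives, and RNVU1-22 in 7 of 16. Without TC4-2A library 1, 8 genes were called, and DESeq2 called 3, namely RNU5B-1, RNU6ATAC and RNU1-27P. Without that library the log2 difference was 0.05 for RNU4-2 and 0.06 for RNU4ATAC, against 0.73 for RNU5B-1.

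**Figure D3:**
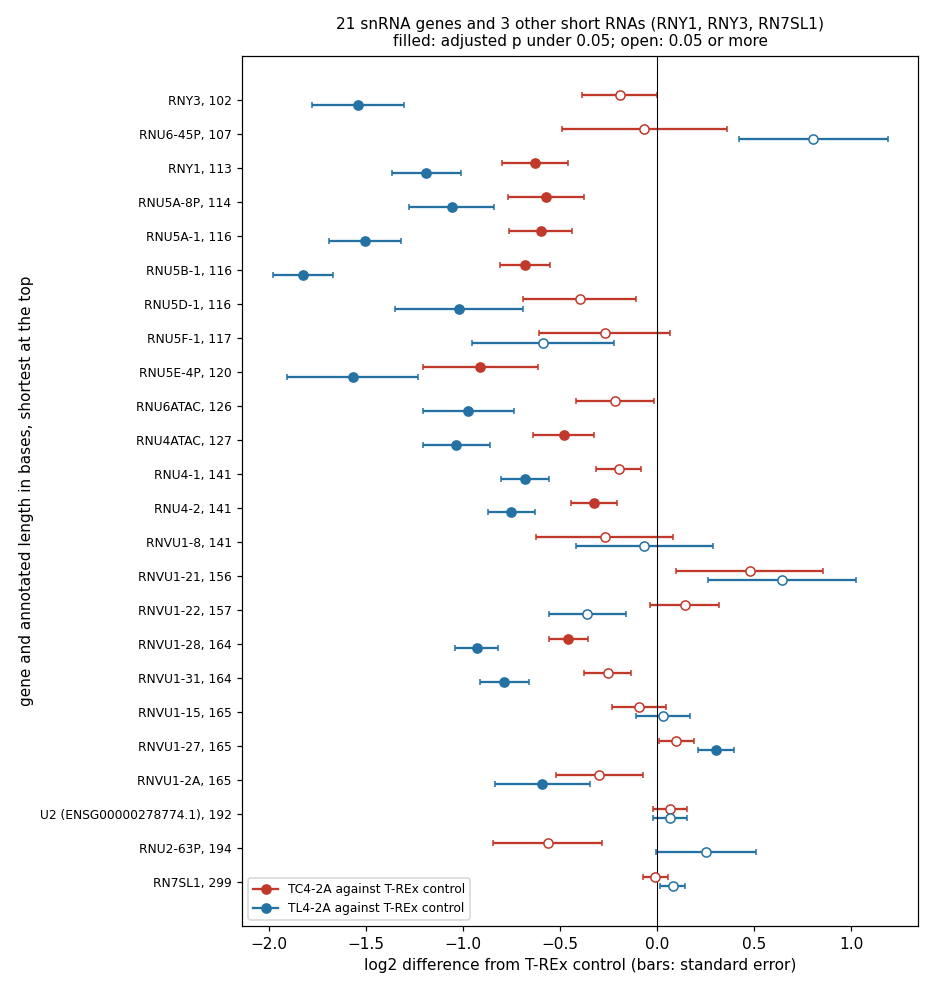
Log2 difference from T-REx control cells (x axis, with standard error) of the 18 tested snRNA genes of own sequence outside same-strand introns, of RNU4ATAC, RNVU1-28 and the U2 gene ENSG00000278774.1, and of RNY1, RNY3 and RN7SL1, ordered by annotated length. TL4-2A differences include -1.83 for RNU5B-1 at 116 bases, -0.79 for RNVU1-31 at 164 bases and 0.07 for the U2 gene at 192 bases, and filled points have an adjusted p under 0.05. They also include 0.80 for RNU6-45P at 107 bases, 0.64 for RNVU1-21 at 156 bases and 0.30 for RNVU1-27 at 165 bases, only the last called. Of the 18 genes, 13 had negative and 5 positive TL4-2A differences.

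Other short RNAs of the same libraries were measured beside the snRNAs. RNY1, a Y RNA of 113 bases, had 140.5, 68.1 and 44.4 CPM in TC4-2A libraries, 58.3, 66.3 and 46.9 CPM in TL4-2A cells, and 113, 132 and 147 CPM in T-REx control cells. RNY3, a Y RNA of 102 bases, had 25.2, 11.6 and 7.79 CPM in TC4-2A libraries, 5.51, 7.06 and 4.88 CPM in TL4-2A cells, and 12.6, 17.3 and 21.2 CPM in T-REx control cells. Y RNAs are no part of the spliceosome, and both had the library order of RNU4-2 and RNU5A-1 in TC4-2A cells. RNY1 differed from T-REx control cells by -1.19 ± 0.18 in TL4-2A cells and by -0.63 ± 0.17 in TC4-2A cells on the log2 scale (edgeR adjusted p = 9.8e-07 and 0.0042). RNY3 differed by -1.54 ± 0.24 in TL4-2A cells, and its difference of -0.19 ± 0.19 in TC4-2A cells did not pass the test (edgeR adjusted p = 1.3e-06 and 0.51). RN7SL1, the signal recognition particle RNA of 299 bases, had log2 differences of 0.08 ± 0.07 in TL4-2A cells and -0.01 ± 0.07 in TC4-2A cells (edgeR adjusted p = 0.33 and 0.94). These 3 genes were chosen after their values were seen.

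Whole classes of short RNA moved less. Summed over 942 genes, small nucleolar RNAs had 503, 449 and 428 CPM in TC4-2A libraries, 419, 447 and 448 CPM in TL4-2A cells, and 505, 471 and 537 CPM in T-REx control cells. The 49 small Cajal body RNA genes had 129 to 138 CPM in TC4-2A libraries, 152 to 168 CPM in TL4-2A cells and 142 to 206 CPM in T-REx control cells. The miRNA genes had 136 to 141 CPM in TC4-2A libraries, 150.1 to 163 CPM in TL4-2A cells and 120.5 to 127 CPM in T-REx control cells. Libraries were also scaled by small nucleolar and Cajal body RNA counts in place of TMM. The comparison of TL4-2A with T-REx control cells then had 15 genes called lower and 15 higher, against 16 and 8 under TMM. That of TC4-2A with T-REx control cells had 8 lower and 10 higher, against 11 and 5 under TMM. Shares of all genes called under this scaling are not given here. The part of RNA length or recovery in the snRNA differences was not tested.

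The genes that share the U1 sequence gave a different picture. RNU1-1, RNU1-2, RNU1-3, RNU1-4, RNVU1-18, RNVU1-29, RNU1-27P and RNU1-28P are annotated with 1 identical sequence of 164 bases, and no window of them is unique. RNVU1-18 (chromosome 1, 143729407 to 143729570) had 24, 11580 and 23 counts in TC4-2A libraries, 18, 27 and 23 in TL4-2A cells, and 27, 38 and 36 in T-REx control cells. RNU1-27P (chromosome 14, 34546714 to 34546877) had 9026, 27 and 1689 counts in TC4-2A libraries, 9, 13 and 8 in TL4-2A cells, and 21, 18 and 16 in T-REx control cells. High counts thus stood at 1 gene in a TC4-2A library and at another gene in the next, and no library of the other lines had more than 38 counts at either gene. RNU1-1 had 1136 counts in TC4-2A library 1, 279 and 182 in its other TC4-2A libraries, 146 to 182 in TL4-2A cells and 261 to 320 in T-REx control cells.

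RNU1-2 and RNU1-4 varied among replicates outside TC4-2A cells. RNU1-2 had 17, 73 and 14 counts in TC4-2A libraries, 289, 12 and 12 in TL4-2A cells, and 341, 597 and 24 in T-REx control cells. RNU1-4 had 220, 234 and 156 counts in TC4-2A libraries, 290, 151 and 115 in TL4-2A cells, and 410, 1198 and 252 in T-REx control cells. The fit gave RNU1-27P a log2 difference of 7.60 ± 0.94 and RNVU1-18 one of 6.77 ± 1.13 between TC4-2A and T-REx control cells (edgeR adjusted p = 4.1e-08 and 1.1e-05). Between TC4-2A and TL4-2A cells the same genes gave 8.27 ± 1.05 and 7.13 ± 1.21. A single library decided the value of RNVU1-18, which was -0.48 without TC4-2A library 2 (edgeR adjusted p = 0.21). RNU1-1 had a log2 difference of 0.84 ± 0.29 between TC4-2A and T-REx control cells (edgeR adjusted p = 0.027), and of -0.36 without TC4-2A library 1 (edgeR adjusted p = 0.0079). RNU1-2 and RNU1-4 were called lower in TC4-2A cells, by -3.19 ± 0.65 and -1.59 ± 0.27 on the log2 scale, and in TL4-2A cells, by -1.38 ± 0.53 and -1.50 ± 0.28 (edgeR adjusted p = 1.9e-05 to 0.032). With DESeq2 the adjusted p of RNU1-2 was 0.11 in the TC4-2A and 0.55 in the TL4-2A comparison with T-REx control cells.

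Since reads cannot be told apart among the 8 genes, they were also summed. The sum was 525, 583 and 115 CPM in TC4-2A libraries, 48.7, 25.0 and 22.6 CPM in TL4-2A cells, and 61.3, 104 and 36.9 CPM in T-REx control cells. All 3 TC4-2A libraries lay above the other 6. Most of their sums came from RNU1-27P in libraries 1 and 3 (451 and 90.7 CPM) and from RNVU1-18 in library 2 (550 CPM). Windows of the shared sequence occur at up to 11 places in the genome. Placement of reads outside the 8 genes can therefore still bear on the sum. RNVU1-29, RNU1-28P and RNU1-3, with the same sequence, had 39 to 66, 8 to 23 and 2 to 13 counts per library. Which of these genes the RNA came from cannot be told apart in these counts.

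**Figure D4:**
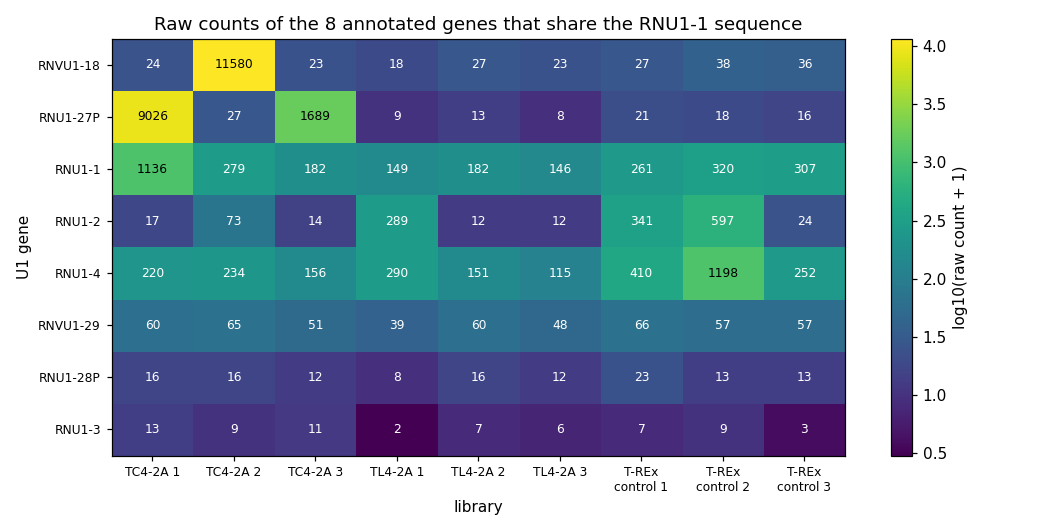
Raw counts (numbers in the cells, colour as log10 of the count plus 1) of the 8 annotated genes that share the RNU1-1 sequence (rows) in each library (columns). High counts stand at RNVU1-18 in TC4-2A library 2 (11580) and at RNU1-27P in TC4-2A libraries 1 and 3 (9026 and 1689).

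Among U2 genes, ENSG00000273709.1 (chromosome 17, 43241180 to 43241370) had 24.9, 29.5 and 45.3 CPM in TC4-2A libraries, 25.2, 32 and 31.8 CPM in TL4-2A cells, and 19.8, 23.9 and 31.0 CPM in T-REx control cells. It was called higher in TC4-2A than in T-REx control cells, by 0.41 ± 0.12 on the log2 scale (edgeR adjusted p = 0.011), with overlapping groups. It shares its sequence with 10 other genes of the array, which had 0 to 137 counts each over the 9 libraries.

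The snRNA genes of own sequence in same-strand introns were mostly copies of U6, with 69 U6 genes among 107. Their counts were low, with a median of 79 over the 9 libraries. Among these genes of own sequence the highest counts were 1947 for RNU4ATAC, 1115 for RNVU1-34 in TEX14 and 971 for RNU6-1016P in SENP6, the highest of the U6 genes. Where both the snRNA gene and the gene around it were tested (54 genes), the median size of the log2 difference between TL4-2A and T-REx control cells was 0.38 for the snRNA gene, with a median SE of 0.37, and 0.15 for the gene around it. Signs were shared by 33 of 54 pairs in that comparison and by 28 of 54 between TC4-2A and T-REx control cells. Across the 54 genes Pearson's r between both differences was 0.29 and 0.28. These genes share their libraries and are no independent replicates.

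Of the 7 intronic genes called higher in TL4-2A than in T-REx control cells, RNU6-1283P in SMYD3 had the largest log2 difference, 1.27, with 0.213 for SMYD3. RNU4ATAC11P in UBE2R2 had 1.20, with -0.118 for UBE2R2, and RNU1-16P in DCUN1D2 had 1.04, with 0.542 for DCUN1D2. RNU6-125P in PKN2, RNU6-126P in ALG8, RNU6-942P in RAB10 and RNU2-58P in SKA2 had 0.904, 0.899, 0.727 and 0.578 (edgeR adjusted p = 0.014 to 0.047 for the 7 genes). Each of the 7 had at most 263 counts over the 9 libraries, and none of the 7 kept its call in all alternatives. RNU6-979P in JAZF1 was higher in TC4-2A than in T-REx control cells by 1.14 ± 0.40 (edgeR adjusted p = 0.027), with 0.570 to 0.698 CPM in TC4-2A cells and 0.212 to 0.324 CPM in T-REx control cells, and kept its call in 7 of 14 alternatives. RNU6-653P in SESN1, a stress-responsive gene, had log2 differences from T-REx control cells of -1.39 ± 0.41 in the TC4-2A line and -1.27 ± 0.42 in the TL4-2A line (edgeR adjusted p = 0.0092 and 0.014), with -0.01 and -0.40 for SESN1. RNU6-653P had only 78 counts over the 9 libraries, and its calls were kept in 13 of 14 and 12 of 15 alternatives.

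**Figure D5:**
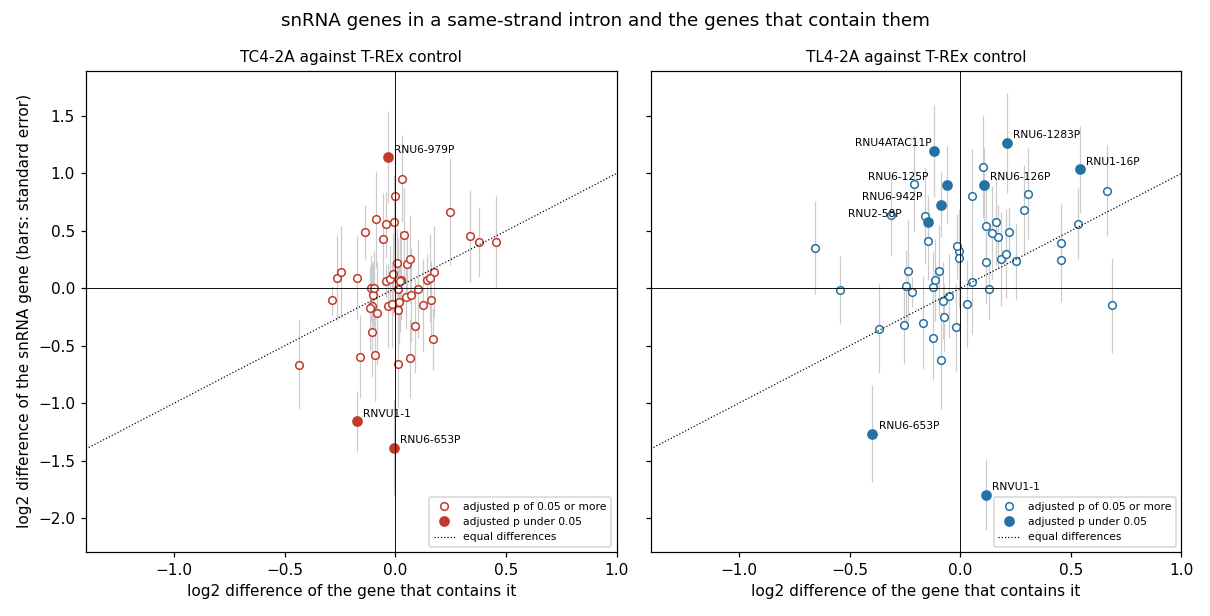
Log2 difference of each of 54 intronic snRNA genes (y axis, with standard error) against that of the gene around it (x axis), for TC4-2A (left) and TL4-2A cells (right) against T-REx control cells, with a dotted line where both are equal. The snRNA genes spread more widely (median size 0.38 in TL4-2A cells) than the genes around them (0.15), and named points have an adjusted p under 0.05.

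By their median, genes near the snRNAs did not share the differences of U5 and U4, but some genes around U5 genes fell. Between TL4-2A and T-REx control cells, PARP16 around RNU5A-1 had a log2 difference of -0.42 (edgeR adjusted p = 0.00011). HHAT around RNU5A-8P had -0.25 (edgeR adjusted p = 0.00016). The genes around RNU5E-4P and RNU5F-1 had -0.16 and -0.04 and were not called (edgeR adjusted p = 0.63 and 0.92). The median log2 difference between TL4-2A and T-REx control cells of the 10 nearest genes tested, 5 on each side, was 0.01 beside RNU5A-1 and RNU5B-1, 0.00 beside RNU4-1 and RNU4-2, 0.05 beside RNVU1-31, 0.06 beside RNU6ATAC and -0.12 beside RNU4ATAC. It was -0.02 beside RNU5A-8P and 0.04 beside RNU5D-1, but -0.50 beside RNU5E-4P. Beside RNU1-2 and RNU1-4, both called lower in TL4-2A cells, it was -0.68 and -0.55. The part of position in these differences was not tested.

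The proteins that make and assemble snRNAs were followed as a list of 62 genes, all of them tested. Between TC4-2A and T-REx control cells 22 were called higher and 5 lower, between TL4-2A and T-REx control cells 24 higher and 8 lower, and between TC4-2A and TL4-2A cells 16 higher and 10 lower. These were 35.5% higher and 8.06% lower beside 14.2% and 14.6% of all genes tested, 38.7% and 12.9% beside 21.9% and 22.5%, and 25.8% and 16.1% beside 17.6% and 17.8%. The median log2 differences were 0.09, 0.06 and 0.00. SMN1 and SMN2 encode the SMN protein, and the constructs carried SMN exons, so reads of the construct and of both genes cannot be told apart. SMN1 and SMN2 together had 95.0, 91.6 and 97.5 CPM in TC4-2A libraries, 61.6, 61.5 and 64.1 CPM in TL4-2A cells, and 53.6, 55.1 and 55.6 CPM in T-REx control cells. SMN1 was higher in TC4-2A than in T-REx control cells by 0.96 ± 0.05 and in TL4-2A cells by 0.15 ± 0.05 (edgeR adjusted p = 2.8e-18 and 0.016).

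By role, the 14 genes of snRNA transcription had 3 called higher (21.4%) and 2 lower (14.3%) in each line against T-REx control cells, beside 14.2% and 14.6% of all genes for the TC4-2A line and 21.9% and 22.5% for the TL4-2A line. SNAPC4, a subunit of the complex that binds snRNA promoters, averaged 54.1 CPM in TC4-2A libraries, 65.1 CPM in TL4-2A cells and 43.8 CPM in T-REx control cells (log2 differences 0.31 and 0.57, edgeR adjusted p = 4.8e-06 and 2.3e-12). SNAPC1 of the same complex averaged 13.4 CPM in TC4-2A libraries, 11.3 CPM in TL4-2A cells and 17.2 CPM in T-REx control cells, and fell by 0.61 in TL4-2A cells (edgeR adjusted p = 7.2e-08). Of the 15 Integrator subunits, which cut the ends of new snRNAs, 3 were called higher (20%) and 2 called lower (13.3%) in TC4-2A cells, beside 14.2% and 14.6% of all genes. The numbers for TL4-2A cells were 6 (40%) and 3 (20%), beside 21.9% and 22.5%, and INTS6 and INTS3 were higher there by 0.43 and 0.27 (edgeR adjusted p = 1.6e-10 and 1.2e-08). Of the 7 genes for the cap, export and import, 4 were called higher (57.1%) and 0 lower in each line, beside 14.2% of all genes called higher in the TC4-2A line and 21.9% in the TL4-2A line.

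Of the 13 genes of Sm core assembly, 7 were called higher and 0 lower in TC4-2A cells relative to T-REx control cells. In TL4-2A cells 5 of them were called higher and 2 lower. SMN1 and SMN2 are among those called higher in both lines, and without them 5 of 11 genes (45.5%) were called higher in the TC4-2A line and 0 lower, beside 14.2% and 14.6% of all genes, and 3 higher (27.3%) and 2 lower (18.2%) in TL4-2A cells, beside 21.9% and 22.5%. GEMIN5, which recognises snRNAs for the SMN complex, was higher in TC4-2A cells by 0.29 ± 0.04 (edgeR adjusted p = 7.5e-08). STRAP, a partner of SMN, averaged 174 CPM in TC4-2A libraries, 226 CPM in TL4-2A cells and 178 CPM in T-REx control cells, and was higher in TL4-2A cells by 0.34 ± 0.03 (edgeR adjusted p = 8.1e-11). Of the 11 genes for end trimming and modification, 5 were called higher (45.5%) and 1 lower (9.09%) in TC4-2A cells, beside 14.2% and 14.6% of all genes. In TL4-2A cells 6 were called higher (54.5%) and 1 lower, beside 21.9% and 22.5%. MEPCE, which caps the 7SK RNA, was higher in TC4-2A cells by 0.50 ± 0.04, and NOLC1, a protein of nucleoli and Cajal bodies, by 0.22 ± 0.03 (edgeR adjusted p = 4.5e-12 and 1.4e-08). Neither LSM10 nor LSM11, the Sm-like proteins of U7, passed the test in any of the 3 comparisons.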

How the data were processed

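RNA was measured in 9 libraries of 3 HEK293-derived lines, TC4-2A, TL4-2A and T-REx control cells, all given Dox for 96 h. The authors isolated total RNA with TRIzol, depleted ribosomal RNA, made directional libraries, mapped paired-end reads to GRCh38 with HISAT2 and deposited raw counts per Gencode v33 gene from featureCounts. For tool versions, the strand setting and the handling of multiply mapped reads, nothing is stated in the sources used here. Deposited tables of the authors' own DESeq2 comparisons hold fold changes and p-values and were not used.

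Of the lines in the count table, 60604 entered the analysis. Excluded were 3 damaged lines and 44 lines for second copies of genes shared by the sex chromosomes. Biotypes, positions and transcripts came from Gencode v44 (GRCh38), which held 60462 of the gene IDs. Depth was 16561680 to 21491977 counts per library, and the SE of each log2 difference covers counting and the spread among libraries. edgeR 4.0.16 in R 4.3.3 fitted 1 quasi-likelihood model over the 9 libraries after filterByExpr and TMM scaling. Only genes that passed were tested, and p-values were adjusted over all of them. Windows of 50 bases were searched on both strands of the 25 main chromosomes. The script was tested on simulated data.

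Genes named were the functional and variant U1 genes of a list, the 10 largest calls per comparison, the genes around them, those at the count minimum, SMN1 and SMN2, and the 4 smallest p-values per comparison in the list of 62 genes for making snRNAs. The other called snRNA genes and RNU6-1016P were named after their values were seen. The members and lists were chosen with earlier results of these data known. Alternatives were DESeq2 1.42.0, RLE scaling, scaling by small nucleolar and Cajal body RNA counts, other filters, fits of the compared lines only, a replicate block and leaving out each library.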

Additional observations from a re-analysis of the deposited data

How the results depend on the processing

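Between TC4-2A and T-REx control cells, 16 snRNA genes were called, and DESeq2 called 3. Between TL4-2A and T-REx control cells, 24 were called, DESeq2 called 14, and 15 were called when every library needed at least 10 counts, a filter that left 37 snRNA genes to test. Between TC4-2A and TL4-2A cells, 15 were called, and DESeq2 called 3. The cause of the lower DESeq2 counts was not tested. Leaving out 1 library at a time gave 10 to 19, 18 to 29 and 8 to 19 calls in these 3 comparisons. Of these, 10 calls were left in the first without TC4-2A library 3 or T-REx control library 3, and 8 in the third without TC4-2A library 1. Shares of all genes called under the alternatives of this section are not given here. The counts of calls therefore show nothing particular to snRNA genes. RNVU1-18 ranged from -0.48 to 7.35 against T-REx control cells and from -0.11 to 7.72 against TL4-2A cells on the log2 scale, negative only without TC4-2A library 2. RNU1-1 ranged from -0.36 to 1.22 against T-REx control cells, negative only without TC4-2A library 1. DESeq2 gave RNVU1-18 no adjusted p. Without the U2 gene ENSG00000278774.1 the median summed snRNA level was 384 CPM in TL4-2A cells and 593 CPM in T-REx control cells, and their order stayed. Same-numbered libraries did not deviate together (correlations of -0.05 to 0.10), so the numbers were not taken as pairs. With the number as a replicate block, 17, 27 and 15 genes were called. RLE scaling called the same genes as TMM in all 3 comparisons. Genes with few counts, such as the intronic pseudogenes, were limited by depth.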
